A study of Homo sapiens with 8 samples.

Results

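The 10 genes described here belong to the NOTCH pathway: the receptors NOTCH1, NOTCH2 and NOTCH3, the ligands DLL1, DLL3, JAG1 and JAG2, and the transcriptional targets HES1, HES4 and HEY1. They were taken by gene name from the count table of the combined transcript assembly, keeping rows that also carry a gene name in the assembly's annotation. They are 10 of 20096 named genes with at least 1 read, and they hold 43 of the 96614 assembled transcripts in that table.

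NOTCH receptors are membrane proteins that are switched on by ligands on a neighbouring cell. Ligand binding lets an ADAM protease and then the gamma-secretase complex cut the receptor, and the freed intracellular part enters the nucleus. There it binds the DNA-binding protein RBPJ, which recognises sites with the core TGGGAA, and switches on genes of the HES and HEY families, which encode basic helix-loop-helix repressors. In the embryonic nervous system the pathway is known for holding neural progenitors undifferentiated, and in mesodermal tissues for its part in segmentation and in heart and vessel development.

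The cells were H1, a line of human embryonic stem cells in wide use, and RNA with poly(A) tails was read on a PacBio Sequel II. The hPSC group was undifferentiated H1 kept in mTeSR1 on Matrigel. The ectoderm group grew in DMEM/F12 and KOSR with 3 small-molecule inhibitors: A83-01 against TGF-β receptors, PNU-74654 against β-catenin signalling and Dorsomorphin against BMP receptors. The endoderm group received WNT3A and Activin A in RPMI and FBS. The mesoderm group received VEGF, BMP4 and bFGF in DMEM/F12 and FBS, and Activin A for the first day only. The differentiated groups were collected after 5 days. Each of the 4 groups had 2 libraries. The labels call them repeats and do not say whether they came from separate cultures, so p-values measure only the spread between these libraries.

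Library totals ran from 503840 to 1180888 reads, with both ectoderm libraries the deepest, so 3 reads correspond to between 2.54 and 5.95 CPM, the unit that scales a count to the library total. At this depth several of the 10 genes rest on few reads, and all intervals below cover counting error only. The mean length of the transcript behind a read was 4406 and 4650 nt in ectoderm, 3765 and 3840 nt in mesoderm, 3298 and 3114 nt in undifferentiated cells, and 3073 and 2975 nt in endoderm. The repeats were least alike in hPSC, with r = 0.873 across genes, against 0.946 to 0.967 in the other groups. Summed pluripotency markers were at 4356 to 4608 CPM in hPSC, where SOX2 had 136.7 and 8.90 CPM. Their sum was at 1863 to 2176 CPM in endoderm, 1543 to 2000 in ectoderm and 393 to 438.7 in mesoderm. In endoderm TDGF1 had 771.9 and 598.8 CPM and NANOG 157.1 and 110.9 CPM, while POU5F1 had 104.2 and 117.7 CPM, against 716.3 and 626.3 in hPSC. Summed endoderm markers reached 2271 to 2387 CPM in endoderm and 0 in hPSC. Most of the endoderm sum was CER1, at 1663 and 2015 CPM, while SOX17 had 256.2 and 27.3 CPM and FOXA2 had 5.12 and 6.82 CPM. Summed neural ectoderm markers were at 489 to 647 CPM in ectoderm, with SOX1 at 0, NR2F1 at 0 and 1.03 CPM and ZIC1 at 4.23 and 3.10 CPM. Their sum was also at 416 to 422 CPM in endoderm, where OTX2 alone had 412 and 406 CPM. Summed mesoderm markers were at 1058 to 1151 CPM in mesoderm, mostly HAND1, TBX3 and BMP4, against at most 213.5 in any other library. In that group TBXT had 1.88 and 0 CPM, and MIXL1, FOXF1 and MESP1 were at 0. KDR, also on the mesoderm list, went the other way. It had 1.88 and 1.99 CPM in mesoderm, against 109.8 and 78.3 in hPSC and 44.4 and 37.5 in endoderm. All 9 amnion and trophoblast markers were present in mesoderm, at 2500 to 2749 CPM summed against at most 82.0 elsewhere. In a bulk library fewer cells of a type and less RNA per cell cannot be told apart.

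Among the receptors, NOTCH1 and NOTCH2 were highest in ectoderm, and so, by a small margin, was NOTCH3. NOTCH1 was lowest in mesoderm, and NOTCH3 varied most between the hPSC repeats. All 3 passed the low-count filter. In the fit of all 10836 tested genes over all 8 libraries (edgeR's quasi-likelihood test, Benjamini-Hochberg adjustment, calls at an adjusted p under 0.05), 4 members rose in ectoderm against hPSC, 1 fell in endoderm, and 1 rose and 1 fell in mesoderm. Of all tested genes, 23.9% rose in ectoderm, 13.8% fell in endoderm, and 16.9% rose and 18.2% fell in mesoderm. With 7 members tested, the counts in endoderm and mesoderm are close to that background. DLL1 had at most 5 reads in any library outside ectoderm, and HEY1 at most 2 outside mesoderm. Each passed the filter only through the group where it was high, so their part in these counts is not independent of the filter. The median log2 fold change of the 7 was 1.67 in ectoderm, -0.36 in endoderm and 0.35 in mesoderm, against -0.01, -0.13 and 0.01 over all tested genes. Between layers, 4 members were higher in ectoderm than in endoderm (33.1% of all tested genes) and 4 higher and 1 lower than in mesoderm (18.1% and 17.3%). Endoderm had 1 member higher and 3 lower than mesoderm (23.3% and 23.9%).

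**Figure D1:**
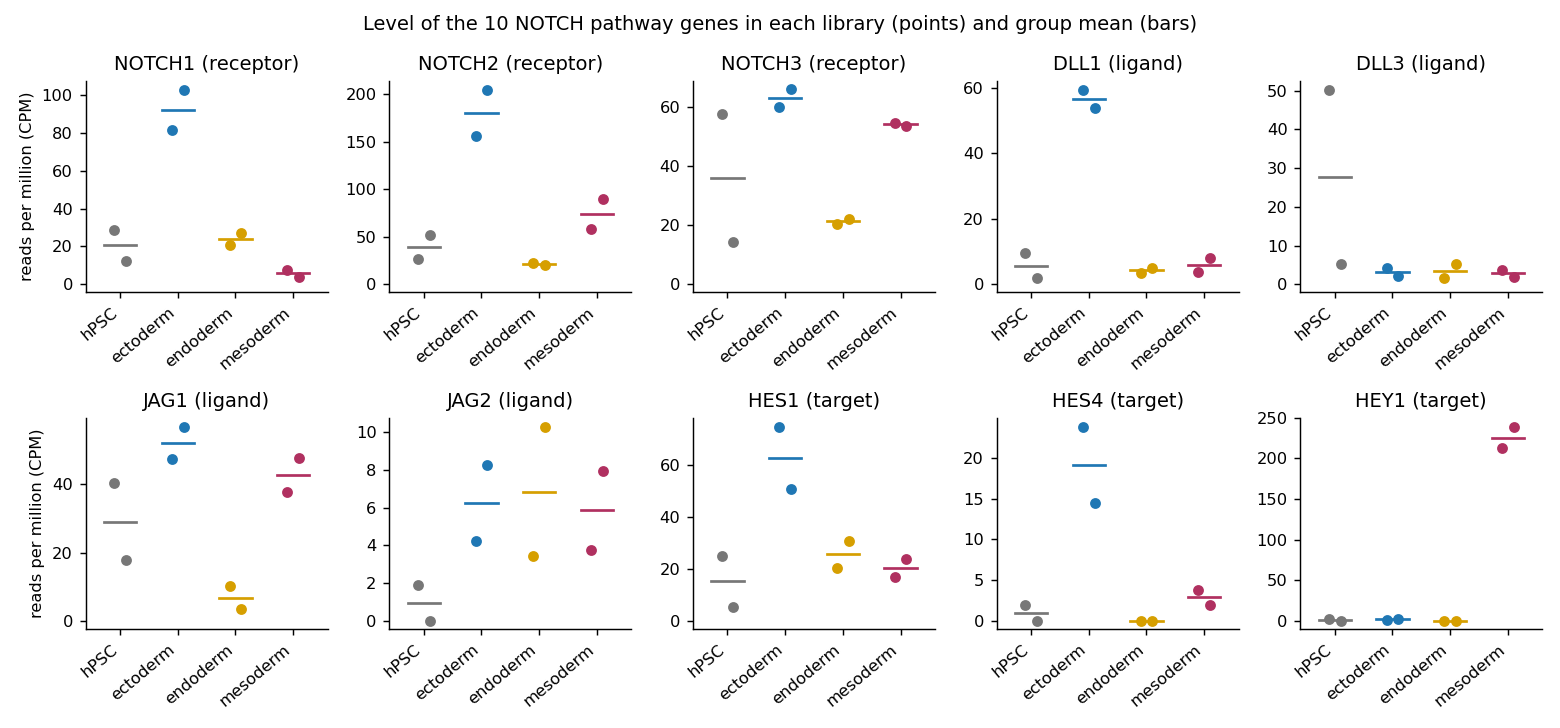
Level of each of the 10 genes in CPM on a linear scale that differs between panels, with 1 point per library and a bar at the mean of the 2 libraries of a group. NOTCH1, NOTCH2, DLL1, HES1 and HES4 are highest in both ectoderm libraries, and so, by a small margin, is NOTCH3. HEY1 is high only in the 2 mesoderm libraries, and DLL3 is high only in hPSC repeat 1.

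NOTCH1 (ENSG00000148400.13, chr9:136494433-136546048, minus strand) is a receptor known from T cells and neural progenitors. It had 15 and 7 reads in the hPSC repeats, 96 and 99 in ectoderm, 4 and 2 in mesoderm, and 12 and 16 in endoderm. Both ectoderm libraries were above all others and both mesoderm libraries below all others, while hPSC and endoderm overlapped. Group means were 91.8 ± 14.9 CPM (SD, n = 2) in ectoderm, 23.9 ± 4.81 in endoderm, 20.7 ± 11.6 in hPSC and 5.75 ± 2.52 in mesoderm. The log2 fold change against hPSC was 1.75 ± 0.39 (SE) in ectoderm (adjusted p = 0.00178) and -2.00 ± 0.62 in mesoderm (adjusted p = 0.0198). In endoderm it was 0.58 ± 0.46, with an adjusted p of 0.388. Between layers, NOTCH1 in ectoderm exceeded endoderm by 1.17 ± 0.37 (adjusted p = 0.0122) and mesoderm by 3.75 ± 0.49 (adjusted p = 3.10e-05), and endoderm exceeded mesoderm by 2.58 ± 0.59 (adjusted p = 0.00224). Removing a trend on transcript length left 0.76 against hPSC (adjusted p = 0.131) and -0.03 against endoderm (adjusted p = 0.962), and both calls were lost. The mesoderm decrease was not called without hPSC repeat 1 (-1.49, adjusted p = 0.128), without mesoderm repeat 1 (-2.46, 0.0659) or repeat 2 (-1.56, 0.162), by DESeq2 (-2.00, 0.0764) or from reference-matching transcripts alone (-4.78, 0.0594). The call of ectoderm over endoderm was lost without ectoderm repeat 2 (1.10, adjusted p = 0.0693), without endoderm repeat 1 (1.00, 0.103) and by DESeq2 (1.17, 0.0983).

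NOTCH2 (ENSG00000134250.21, chr1:119911553-120069662, minus strand), a receptor known for roles in liver, kidney and bone, had 14 and 29 reads in hPSC, 184 and 198 in ectoderm, 31 and 45 in mesoderm, and 13 and 12 in endoderm. The groups did not overlap in CPM, and their order was ectoderm at 180.3 ± 34.6 CPM, mesoderm at 73.8 ± 21.9, hPSC at 39.3 ± 17.4 and endoderm at 21.3 ± 1.22 (SD, n = 2). Only the neighbours mesoderm and hPSC (log2 fold change 0.63 ± 0.41, adjusted p = 0.245) and hPSC and endoderm (-0.58 ± 0.47, adjusted p = 0.393) did not differ by the test. Ectoderm exceeded hPSC by 1.73 ± 0.38 (adjusted p = 0.00173), endoderm by 2.31 ± 0.41 (adjusted p = 0.000183) and mesoderm by 1.09 ± 0.36 (adjusted p = 0.0253). Endoderm was below mesoderm, at -1.21 ± 0.44 (adjusted p = 0.0340). With the length trend removed, none of these 4 calls of NOTCH2 remained: the values were 0.63, 0.94, 0.43 and -0.50, with adjusted p between 0.0606 and 0.369. The call of ectoderm over mesoderm was also lost without ectoderm repeat 2 (0.99, adjusted p = 0.144), without mesoderm repeat 1 (0.88, 0.210) and by DESeq2 (1.12, 0.0929). The endoderm to mesoderm call was lost without endoderm repeat 1 (-1.22, adjusted p = 0.129) or repeat 2 (-1.17, 0.142), without mesoderm repeat 2 (-0.88, 0.222) and by DESeq2 (-1.20, 0.0853). NOTCH2 in mesoderm over hPSC was called without hPSC repeat 2 (1.36, adjusted p = 0.0154).

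The human genome also holds NOTCH2NLA, NOTCH2NLB, NOTCH2NLC and NOTCH2NLR, partial copies of NOTCH2 that are expressed in the developing cortex. Together they had 9 and 1 reads in hPSC, 55 and 56 in ectoderm, 18 and 18 in mesoderm, and 5 and 2 in endoderm. How the counting shared reads between NOTCH2 and these copies is not given in the sources used here, so the counts of both are uncertain. NOTCH2NLA, the only copy past the filter, rose in ectoderm by 2.18 ± 0.76 (adjusted p = 0.0259) and in mesoderm by 2.35 ± 0.81 (adjusted p = 0.0347). These values rest on 2 and 1 reads in hPSC, against 21 and 17 in ectoderm and 8 and 10 in mesoderm. NOTCH2NLA passed the filter only through its reads in ectoderm and mesoderm, so these rises are not independent of the filter.

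NOTCH3 (ENSG00000074181.9, chr19:15159043-15200995, minus strand), the receptor of vascular smooth muscle, had 30 and 8 reads in hPSC, 71 and 64 in ectoderm, 29 and 27 in mesoderm, and 12 and 13 in endoderm. The hPSC repeats lay at 57.8 and 14.2 CPM and the endoderm and mesoderm libraries fell between them, while both ectoderm libraries, at 60.1 and 66.2 CPM, were above all others. No difference of NOTCH3 between groups passed the test. The log2 fold changes against hPSC were 0.44 ± 0.40 in ectoderm, -0.36 ± 0.48 in endoderm and 0.41 ± 0.43 in mesoderm, with adjusted p of 0.381, 0.630 and 0.486. Without hPSC repeat 1 NOTCH3 was called higher in ectoderm (1.53, adjusted p = 0.00684) and in mesoderm (1.50, adjusted p = 0.0137), and without hPSC repeat 2 the NOTCH3 values were -0.08 and -0.17. Ectoderm against endoderm was 0.80 ± 0.43 (adjusted p = 0.119). It was called without hPSC repeat 1 (0.78, adjusted p = 0.0335) or repeat 2 (0.86, 0.0185), with library totals (1.56, 0.0137), with the GC trend removed (1.80, 0.00193), from reference-matching transcripts (1.99, 0.0207) and with endoderm and ectoderm fitted alone (0.85, 0.0256). With the length trend removed it was -0.34.

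**Figure D2:**
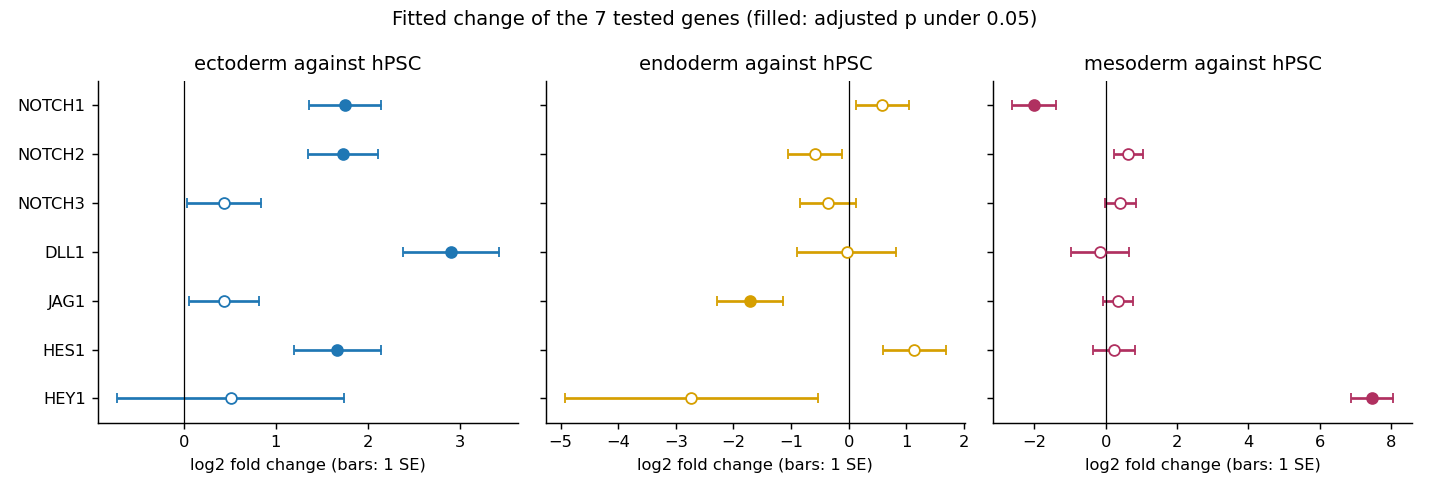
Fitted log2 fold change of the 7 tested genes in each layer against hPSC, with bars of 1 SE, and filled points for an adjusted p under 0.05 (edgeR). The scale differs between panels. In ectoderm NOTCH1, NOTCH2, DLL1 and HES1 are filled on the right, in endoderm only JAG1 is filled, on the left, and in mesoderm NOTCH1 is filled on the left and HEY1, at 7.46, on the right.

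The ligands each had their own pattern. DLL1 was high in ectoderm, JAG1 was low in endoderm, DLL3 had most of its reads in a single hPSC library, and JAG2 had few reads anywhere.

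DLL1 (ENSG00000198719.9, minus strand), a Delta-like ligand that neural and presomitic cells present to their neighbours, had 5 and 1 reads in hPSC, 70 and 52 in ectoderm, 2 and 4 in mesoderm, and 2 and 3 in endoderm. Both ectoderm libraries, at 59.3 and 53.8 CPM, stood above the other 6, which lay between 1.78 and 9.63 CPM. The log2 fold change in ectoderm was 2.90 ± 0.52 against hPSC (adjusted p = 0.000385), 2.93 ± 0.55 against endoderm (adjusted p = 0.000268) and 3.05 ± 0.51 against mesoderm (adjusted p = 0.000305). These calls were kept in every alternative that gave a value, and with the length trend removed the ectoderm increase over hPSC was 2.35 (adjusted p = 0.00307). DLL1 passed the filter only through ectoderm, so its calls are not independent of the filter. The order among hPSC, endoderm and mesoderm could not be set, as their fitted differences ranged from -0.16 to 0.12 with an SE of at least 0.82.

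Part of the DLL1 count came from outside the usual gene body. Most of its 139 reads fell on 4 spliced transcripts within chr6:170282200-170291491, and 36 fell on a single-exon transcript of 8218 nt at chr6:170298519-170306736 on the same strand. Its 5′ end lies 15658 nt upstream of the start of the reference-matching DLL1 transcript. It covers the first exon (chr6:170306526-170306565) and part of the first intron of an annotated DLL1 transcript with a distal start, and its 5′ end is 6 nt from the start of the assembled FAM120B transcript on the opposite strand. All 5 endoderm reads of DLL1 were on the single-exon transcript, against 28 of 122 in ectoderm (23.0%, 95% Wilson interval 16.4 to 31.2%), 1 of 6 in hPSC and 2 of 6 in mesoderm. Spliced DLL1 transcripts therefore had 0 reads in both endoderm libraries. The exons of 3 of the spliced transcripts also overlap FAM120B on the other strand.

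DLL3 (ENSG00000090932.11, chr19:39498899-39509960, plus strand) is the divergent Delta-like ligand that does not activate receptors on neighbouring cells. It had 26 and 3 reads in hPSC, 5 and 2 in ectoderm, 2 and 1 in mesoderm, and 1 and 3 in endoderm. hPSC repeat 1, at 50.1 CPM, stood alone, and hPSC repeat 2, at 5.34 CPM, was close to the highest library of the layers at 5.12 CPM. DLL3 did not pass the filter. In the fit without the filter it was -3.17 ± 0.61 in ectoderm (adjusted p = 3.92e-06), -2.53 ± 0.72 in endoderm (adjusted p = 0.00650) and -3.33 ± 0.75 in mesoderm (adjusted p = 0.000167). Of the 29 hPSC reads behind these values, 26 came from repeat 1, and without that library DLL3 did not pass the filter. With other libraries left out, DLL3 was called in endoderm only without hPSC repeat 2, and the other 6 values had adjusted p from 0.0927 to 0.321. The mesoderm call was lost without mesoderm repeat 1 (-3.78, adjusted p = 0.101) or repeat 2 (-2.92, 0.143), and the ectoderm call without ectoderm repeat 2 (-2.84, 0.0591).

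JAG1 (ENSG00000101384.12, chr20:10637680-10673999, minus strand), the Jagged ligand known from the liver, heart and inner ear, had 21 and 10 reads in hPSC, 56 and 55 in ectoderm, 20 and 24 in mesoderm, and 6 and 2 in endoderm. Both endoderm libraries, at 10.2 and 3.41 CPM, were below all others. The other 3 groups overlapped in part: the means were 29.1 ± 16.0 CPM in hPSC, 52.1 ± 6.68 in ectoderm and 42.7 ± 7.06 in mesoderm (SD, n = 2). In endoderm the log2 fold change was -1.71 ± 0.57 against hPSC (adjusted p = 0.0366). JAG1 in ectoderm exceeded endoderm by 2.15 ± 0.51 (adjusted p = 0.00179), and endoderm was below mesoderm at -2.05 ± 0.54 (adjusted p = 0.00606). Ectoderm and mesoderm differed from hPSC by 0.44 ± 0.38 and 0.35 ± 0.42, with adjusted p of 0.355 and 0.549. The endoderm call against hPSC held in 8 of 18 alternatives, with adjusted p from 0.00361 to 0.30. It was lost without hPSC repeat 1 (-1.20, adjusted p = 0.212) and without endoderm repeat 1 (-2.57, 0.0619) or repeat 2 (-1.09, 0.30). It was also lost without either ectoderm library (-1.64, 0.0695 and 0.0692) or mesoderm library (-1.64, 0.0703 and 0.0688), by DESeq2 (-1.68, 0.140), with hPSC and endoderm fitted alone (-1.84, 0.0600) and with all listed transcripts (-1.64, 0.0527). The endoderm to mesoderm call was lost without endoderm repeat 2 (-1.49, 0.0922) or mesoderm repeat 2 (-1.88, 0.0516).

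The endoderm difference of JAG1 was larger on its main transcript. The 26-exon transcript that matches the reference had 19 and 9 reads in hPSC, 48 and 44 in ectoderm, 16 and 18 in mesoderm, and 1 and 1 in endoderm. Tested as a transcript it fell in endoderm by 3.53 ± 0.76 on the log2 scale (adjusted p = 0.00288 over 12440 transcripts). It was the only 1 of the 11 tested transcripts of these genes called in endoderm, where 26.8% of all tested transcripts were called. The other 6 endoderm reads lay on a 24-exon form that begins 1179 nt further into the gene and on a 3-exon form of 5311 nt from the same start, so the reference-matching share was 25.0% there (95% Wilson interval 7.15 to 59.1%) against 90.3% in hPSC (75.1 to 96.7%). Both the 26-exon and the 3-exon form overlap exons of AL050403.2 on the other strand, and whether the counting used strand is not given in the sources used here.

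JAG2 (ENSG00000184916.9, chr14:105140995-105181312, minus strand), the second Jagged ligand, had 1 and 0 reads in hPSC, 5 and 8 in ectoderm, 2 and 4 in mesoderm, and 2 and 6 in endoderm. Both hPSC libraries were below all 6 others, by as little as 1.93 against 3.42 CPM. The ratio to hPSC was 6.54 in ectoderm (95% interval of the counts 0.983 to 278), 7.38 in endoderm (0.990 to 328) and 6.27 in mesoderm (0.761 to 288). A difference was not detectable at this depth, and JAG2 did not pass the filter. None of its 28 reads was on a transcript that matches a reference transcript in full, and 3 of its 6 transcripts overlap exons of NUDT14 or AL512356.1 on the same strand.

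The targets differed in layer. HES1 and HES4 were highest in ectoderm and HEY1 was high only in mesoderm. HES1 (ENSG00000114315.4, chr3:194136144-194138732, plus strand) encodes the repressor best known for keeping neural progenitors from differentiating. Its counts were 13 and 3 in hPSC, 88 and 49 in ectoderm, 9 and 12 in mesoderm, and 12 and 18 in endoderm. Both ectoderm libraries, at 74.5 and 50.7 CPM, were above the other 6, which lay between 5.34 and 30.7 CPM and overlapped. HES1 rose in ectoderm by 1.67 ± 0.47 against hPSC (adjusted p = 0.00873) and by 1.43 ± 0.45 against mesoderm (adjusted p = 0.0210). Against endoderm the value was 0.53 ± 0.42, with an adjusted p of 0.282. With the length trend removed the ectoderm values were 2.74 against hPSC (adjusted p = 0.000353) and 1.70 against endoderm (adjusted p = 0.00245). Without ectoderm repeat 1 the ectoderm calls were lost against hPSC (1.48, adjusted p = 0.0715) and mesoderm (1.19, 0.155). The latter was also lost without mesoderm repeat 1 (1.27, 0.188) or repeat 2 (1.75, 0.0843), by DESeq2 (1.46, 0.122) and from reference-matching transcripts (1.31, 0.0603). HES1 in endoderm against hPSC was 1.14 ± 0.55 (adjusted p = 0.138), and without hPSC repeat 1 it was 2.40 (adjusted p = 0.00931).

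HES4 (ENSG00000188290.11, chr1:998962-1000714, minus strand), a HES family member present in humans and absent from mice, had 1 and 0 reads in hPSC, 28 and 14 in ectoderm, 2 and 1 in mesoderm, and 0 and 0 in endoderm. Both ectoderm libraries, at 23.7 and 14.5 CPM, were above all others, of which the highest had 3.77 CPM. HES4 did not pass the filter. By counts ectoderm was 21.1 times hPSC (95% interval 3.59 to 855), 6.75 times mesoderm (2.16 to 34.0) and at least 3.73-fold higher than endoderm, taking 3 counts per library as the floor. In the fit without the filter the ectoderm values were 3.94 ± 0.95 against hPSC (adjusted p = 0.000414) and 2.66 ± 0.75 against mesoderm (adjusted p = 0.00418). HES4 was called against hPSC in all 9 alternatives that gave it a value and against mesoderm in 6 of 9. Outside ectoderm it had at most 2 reads in any library. Where a filter was used it therefore passed only through ectoderm, and these calls are not independent of the filter. The latter call was lost without ectoderm repeat 2 (2.86, adjusted p = 0.0742), mesoderm repeat 1 (3.04, 0.125) or mesoderm repeat 2 (2.17, 0.178), and without ectoderm repeat 1 HES4 did not pass the filter.

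The promoters of HES1 and HES4 are shown because these genes were both highest in ectoderm and, of the 7 members with an entry in the RefSeq table of GRCh38.p14 (NOTCH1, NOTCH2, NOTCH3, JAG1, JAG2, HES1 and HES4), they alone hold the RBPJ motif. Each window runs from 250 bases before to 50 bases after the RefSeq start, 5′ to 3′ on the gene's strand, and capitals mark the RBPJ motif GTGGGAA or its core TGGGAA.
HES1 promoter, chr3:194135898-194136197, plus strand: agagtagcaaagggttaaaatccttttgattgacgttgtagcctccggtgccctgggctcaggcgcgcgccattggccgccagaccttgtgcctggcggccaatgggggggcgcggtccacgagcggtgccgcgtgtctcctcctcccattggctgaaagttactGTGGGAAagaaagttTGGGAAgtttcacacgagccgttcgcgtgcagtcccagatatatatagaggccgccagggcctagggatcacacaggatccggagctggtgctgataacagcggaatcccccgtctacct
HES4 promoter, chr1:1000048-1000347, minus strand: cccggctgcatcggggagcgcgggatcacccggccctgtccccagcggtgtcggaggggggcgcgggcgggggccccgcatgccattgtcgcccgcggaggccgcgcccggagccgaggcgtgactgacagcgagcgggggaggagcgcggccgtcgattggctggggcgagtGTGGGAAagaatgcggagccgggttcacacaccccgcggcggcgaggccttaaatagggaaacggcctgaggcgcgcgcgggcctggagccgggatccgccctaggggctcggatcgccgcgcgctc

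Searched on both strands, GTGGGAA begins at position -85 in HES1 and -77 in HES4, counted from the RefSeq start. It is found in 6.25% of 35116 promoter windows of the same length. The core TGGGAA, which GTGGGAA contains, is in 24% of windows, and HES1 holds it again at -70. A window with at least 2 copies of the core is found in 3.8% of cases. The longest run shared by both promoters is tgtgggaaagaa, present in 8 of 35116 windows, and this run was looked for after both promoters had been read. The N-box CACNAG, a site bound by HES proteins, is in 38% of windows and in those of HES1, NOTCH1, NOTCH2 and NOTCH3. The E-box CACGTG is in 7.26% of windows and in none of the 7. A match of letters is a description, not evidence of binding.

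Reads of HES1 and HES4 began at or near these windows. All 3 assembled HES1 transcripts began at chr3:194136144, inside the printed window. HES4 reads came from 3 starts: 18 of 46 from chr1:1000714, 15 from a start 542 nt downstream, which lies in the printed window, and the rest from a start 617 nt downstream, which is the RefSeq start. The first of these lies outside the window. In ectoderm the 2-exon transcript of the first start had 11 and 5 reads, the 3-exon one of the second 9 and 6, and the 4-exon one of the last 7 and 3.

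HES1 transcripts differed in makeup. The 4-exon reference-matching transcript had 14 of 16 reads in hPSC (87.5%, 95% Wilson interval 64.0 to 96.5%), 91 of 137 in ectoderm (66.4%, 58.2 to 73.8%), 11 of 30 in endoderm (36.7%, 21.9 to 54.5%) and 16 of 21 in mesoderm (76.2%, 54.9 to 89.4%). A 3-exon form that keeps an intron had 12 endoderm reads and a 232-nt single-exon form had 7. Tested as a transcript, the reference-matching form rose in ectoderm by 1.46 ± 0.54 (adjusted p = 0.0372) and was at -0.18 ± 0.71 in endoderm (adjusted p = 0.895). Transcript choice of HES1 could not be tested, since only this transcript passed the filter.

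HEY1 (ENSG00000164683.19, minus strand) encodes a HEY family repressor known from heart and vessel development. It had 1 and 0 reads in hPSC, 2 and 2 in ectoderm, 113 and 120 in mesoderm, and 0 and 0 in endoderm. The mesoderm libraries lay at 213 and 238 CPM, and no other library was above 2.07 CPM. By counts mesoderm was 243 times hPSC (95% interval 43.3 to 9656) and at least 44.0-fold higher than endoderm. The adjusted p was 3.90e-07 against hPSC, 4.65e-07 against endoderm and 1.05e-07 against ectoderm, where the log2 difference of ectoderm from mesoderm was -6.95 ± 0.46. HEY1 passed the filter only through mesoderm, so these 3 calls are not independent of the filter. Each of the 3 calls was kept in all 18 alternatives. Beside this, the mesoderm libraries carried the amnion and trophoblast markers given above, while the endothelial markers PECAM1, ERG and TAL1 were at 0, CDH5 had 9.41 and 5.95 CPM, and TEK had 26.4 and 11.9 CPM against 11.9 to 51.7 CPM in the other groups. The part of those cells in the HEY1 level was not tested.

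The reads of HEY1 were shared by 2 reference-matching transcripts of 5 exons, with 2248 and 2295 nt. In mesoderm the shorter had 83 and 85 reads and the longer 30 and 35, a share of 72.1% (95% Wilson interval 66.0 to 77.5%) against 27.9%. Both rose in mesoderm, by 9.75 ± 0.90 (adjusted p = 3.09e-06) and 5.74 ± 0.78 (adjusted p = 6.73e-05) as fitted, values that depend on the prior count because hPSC had 0 reads of the first and 1 of the second.

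**Figure D3:**
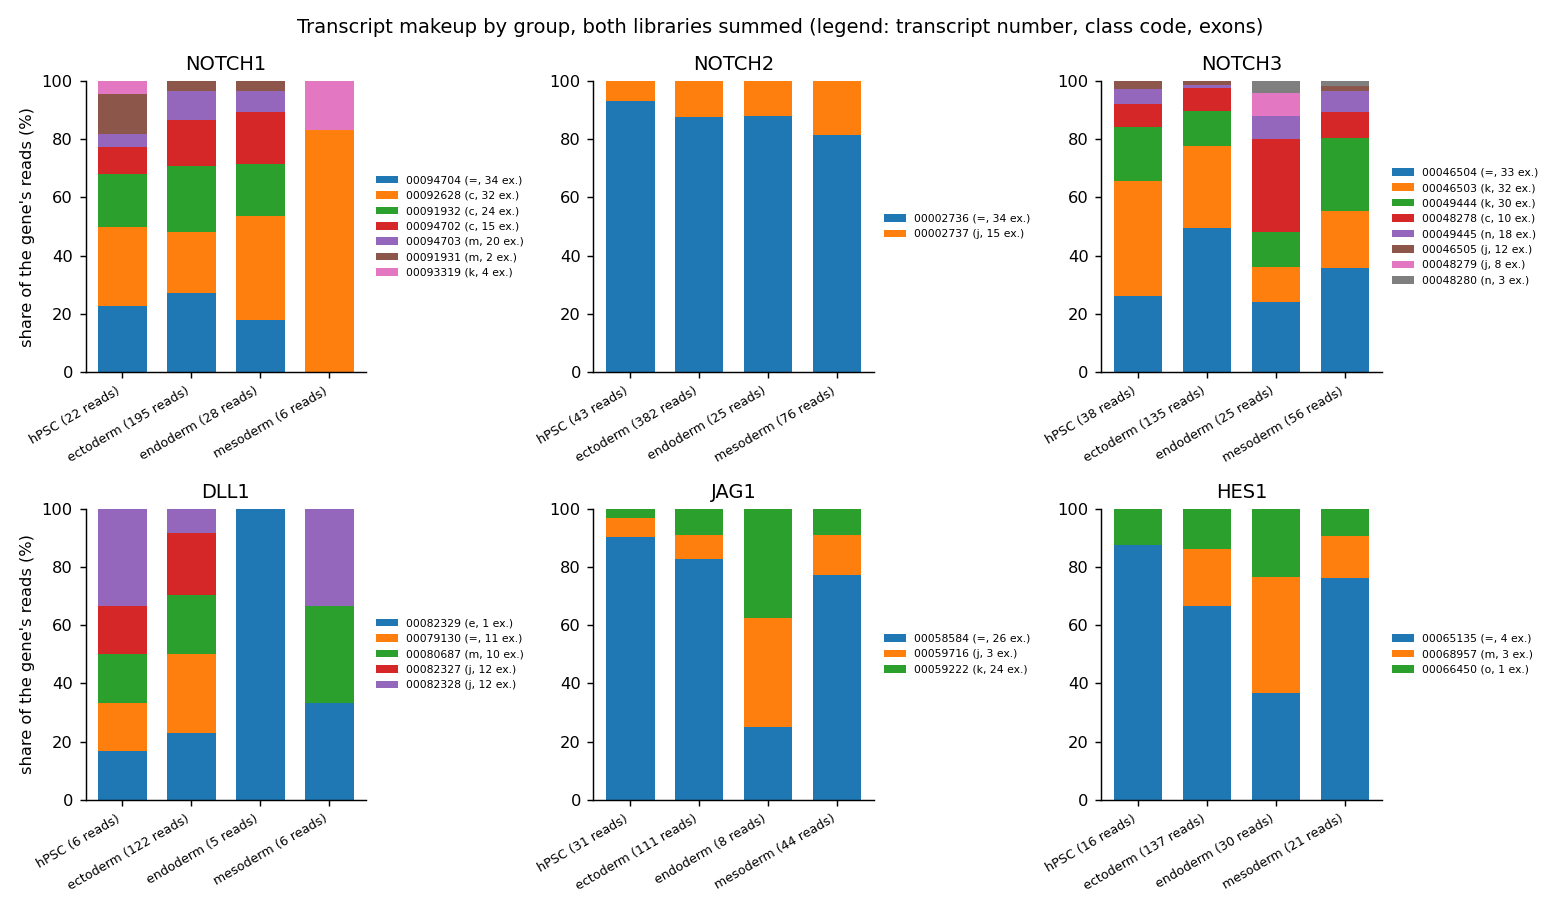
Share of each gene's reads by assembled transcript, in percent, with both libraries of a group summed and the number of reads under each bar. The legend gives the transcript number, its class code (= matches a reference transcript, the other codes do not) and its exons. In endoderm all DLL1 reads lie on the single-exon transcript and the reference-matching shares of JAG1 and HES1 are the smallest of the 4 groups, at 25.0% and 36.7%.

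The reads of the receptors were spread over their assembled transcripts to different degrees. NOTCH2 had only 2 assembled transcripts. Of its 526 reads, 459 (87.3%) were counted on the one that matches the 34-exon reference transcript of 11425 nt. The other 67 were counted on a 15-exon form of 4075 nt with the same start that ended 37831 nt earlier in the gene. No assembled NOTCH2 form began further into the gene, and whether single reads spanned the whole transcript was not tested. That short form had 3 of 43 reads in hPSC (6.98%, 95% Wilson interval 2.40 to 18.6%), 47 of 382 in ectoderm (12.3%, 9.38 to 16.0%), 3 of 25 in endoderm and 14 of 76 in mesoderm (18.4%, 11.3 to 28.6%). Both NOTCH2 transcripts rose in ectoderm, the long by 1.85 ± 0.39 (adjusted p = 0.00150) and the short by 2.68 ± 0.68 (adjusted p = 0.00468).

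Only 63 of 251 NOTCH1 reads (25.1%) were on the 34-exon reference transcript of 9568 nt. Most others were on forms that share its 3′ end and begin 22074, 30451 or 37679 nt into the gene, with 32, 24 and 15 exons. Whether these are starts of their own or incomplete copies of longer RNA was not tested. The full form had 53 of 195 reads in ectoderm (27.2%, 95% Wilson interval 21.4 to 33.8%), 5 of 22 in hPSC, 5 of 28 in endoderm and 0 of 6 in mesoderm, where 5 of the 6 reads were on the 32-exon form. In ectoderm the full form rose by 2.15 ± 0.61 (adjusted p = 0.00994), and the 32-exon and 24-exon forms by 1.52 ± 0.59 (adjusted p = 0.0445) and 2.19 ± 0.63 (adjusted p = 0.0109).

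NOTCH3 had 103 of 254 reads on its 33-exon reference transcript. A 10-exon form that begins 23265 nt into the gene had 8 of 25 reads in endoderm (32.0%, 95% Wilson interval 17.2 to 51.6%), against 11 of 135 in ectoderm (8.15%, 4.61 to 14.0%). In hPSC it had 3 of 38 reads (7.90%, 2.72 to 20.8%) and in mesoderm 5 of 56 (8.93%, 3.87 to 19.3%). Whether it has a start of its own or is an incomplete copy of longer RNA was not tested.

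Use of transcripts within a gene could be tested for the 4 genes with at least 2 tested transcripts, NOTCH1, NOTCH2, NOTCH3 and HEY1. None was called in ectoderm, endoderm or mesoderm against hPSC (edgeR's diffSpliceDGE, Simes p adjusted over 2631 genes), where 2.66%, 2.13% and 2.89% of those genes were called. HEY1 had only 1 read in hPSC, and NOTCH1 only 6 in mesoderm. With so few reads those tests cannot show whether transcript use was the same. The lowest value was that of NOTCH1 in mesoderm, with an unadjusted p of 0.167 by Simes' method and 0.0225 by the gene-level F test, and no other of the 12 tests was under 0.05 unadjusted by either. By single transcripts, 6 of the 11 tested rose and 0 fell in ectoderm, and 2 rose and 0 fell in mesoderm. Of all tested transcripts, 45.9% and 32.8% were called there, counting both directions together. The ectoderm rises were on transcripts of NOTCH1, NOTCH2 and HES1, and transcripts of the same gene are not independent of each other. Both mesoderm rises were on HEY1 transcripts, which passed the filter only through mesoderm.

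The ectoderm values moved when transcript length was taken into account. NOTCH1, NOTCH2, NOTCH3 and JAG1 have long transcripts, HES1 and HEY1 short ones, and ectoderm reads came from longer transcripts than those of any other group. With a smooth trend on length removed from each library, the ectoderm value against hPSC fell from 1.75 to 0.76 for NOTCH1, from 1.73 to 0.63 for NOTCH2, from 0.44 to -0.50 for NOTCH3 and from 0.44 to -0.27 for JAG1. It rose from 1.67 to 2.74 for HES1. The part of length in the counts cannot be told apart from a change in long genes. With a trend on GC content removed in place of length, the ectoderm values were 2.36 for NOTCH1, 1.80 for NOTCH2, 3.54 for DLL1 and 1.85 for HES1, all called, and NOTCH3 was called at 1.15 (adjusted p = 0.0268). Scaling by library totals moved the median of all genes by 0.42 in ectoderm, -0.33 in endoderm and 0.23 in mesoderm against hPSC, and values above are relative to the TMM-scaled median.

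**Figure D4:**
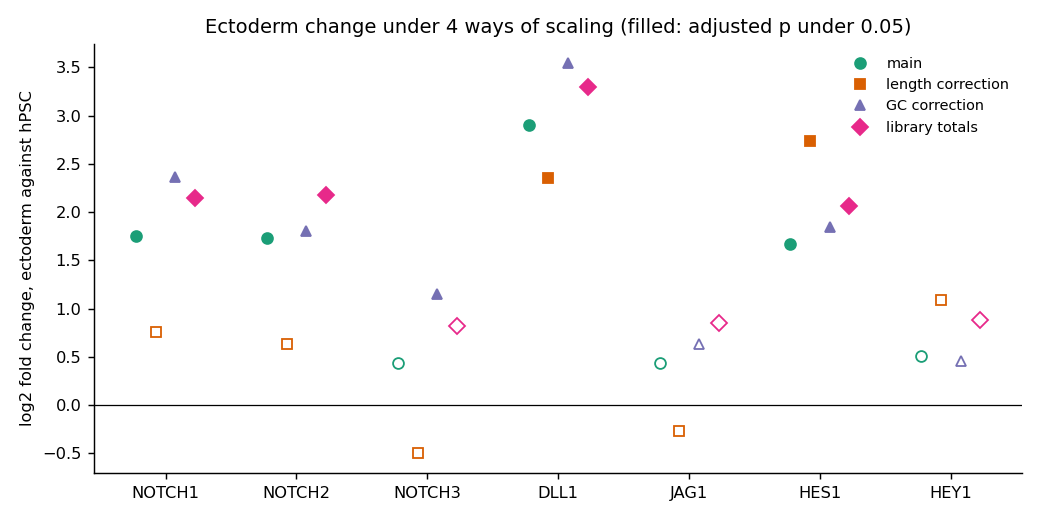
Log2 fold change of the 7 tested genes in ectoderm against hPSC under the fit used here (main), with a length trend removed, with a GC trend removed, and with scaling by library totals. Filled points have an adjusted p under 0.05. DLL1 and HES1 are filled in all 4, and NOTCH1 and NOTCH2 are open after the length correction, at 0.76 and 0.63.

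For each tested member, the gene whose level across the 8 libraries was most like it was found among 10269 genes, by the root mean square difference of log2 CPM after each gene was centred on its mean. The nearest gene was KIF5C for NOTCH1 (0.33), TMEM106B for NOTCH2 (0.16), CEP95 for NOTCH3 (0.12), KCNAB1 for DLL1 (0.29), IARS2 for JAG1 (0.18), KHDRBS2 for HES1 (0.25) and PAPPA2 for HEY1 (0.30). PAPPA2 had 93 and 70 reads in mesoderm and 1 read in the other 6 libraries together, in ectoderm. KCNAB1 had 27 and 23 reads in ectoderm and at most 1 in any other library. Nearness by this measure is a description over 8 libraries that share their groups.

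A list of 67 further genes of the pathway was drawn up by role, and 64 had a row in the count table. Of these, 44 passed the filter. Compared with hPSC, 9 rose and 10 fell in ectoderm, 8 rose and 8 fell in endoderm, and 7 rose and 7 fell in mesoderm. In the same order, 25, 28 and 30 were not called. Of all tested genes, 48.7%, 27.3% and 35.1% were called in either direction. Scaled by library totals the split was 16 higher and 7 lower in ectoderm, 9 and 5 in mesoderm, and 4 and 11 in endoderm. The median log2 fold change of the list was 0.14, -0.10 and 0.30.

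By the smallest adjusted p, the genes to name in ectoderm were DLK1, TLE4 and ADAM10. DLK1, a membrane protein related to the Delta ligands, had 468 and 312 reads in ectoderm, 1 and 1 in mesoderm and 0 in hPSC and endoderm, so ectoderm was at least 62.2-fold higher than hPSC. TLE4, a corepressor that HES proteins recruit, had 15 and 9 reads in hPSC and 283 and 240 in ectoderm, a log2 fold change of 3.03 ± 0.35 (adjusted p = 1.25e-05), and rose in mesoderm by 2.26. ADAM10, the protease that makes the ligand-dependent cut of NOTCH, had 19 and 28 reads in hPSC, 591 and 530 in ectoderm and 110 and 94 in mesoderm. It rose by 3.15 ± 0.37 in ectoderm (adjusted p = 1.29e-05) and by 1.93 in mesoderm, and was still called in both with the length trend removed, at 2.05 and 1.50.

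In endoderm the named genes were BHLHE40, FURIN and NCSTN. BHLHE40, a repressor related to the HES and HEY proteins, had 4 and 4 reads in hPSC, 2 and 4 in ectoderm, 53 and 53 in mesoderm, and 93 and 74 in endoderm. FURIN, which cuts the NOTCH precursor in the secretory pathway, had 13 and 12 reads in hPSC and 56 and 70 in endoderm. NCSTN, the substrate-binding subunit of gamma-secretase, had 75 and 100 reads in hPSC and 299 and 322 in endoderm. The log2 fold changes in endoderm were 4.57, 2.55 and 2.03, and each of these genes was called under the length and GC corrections and under library totals. The genes named in mesoderm were BHLHE40, which rose by 3.53, TLE4 and ADAM10.

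Other proteases of the pathway, and subunits of gamma-secretase, also differed from hPSC. APH1A, a gamma-secretase subunit, had 67 and 106 reads in hPSC, 46 and 58 in ectoderm, 59 and 34 in mesoderm, and 148 and 170 in endoderm. It rose in endoderm by 1.08 ± 0.36 (adjusted p = 0.0357) and fell in ectoderm by 2.15 on the log2 scale. In mesoderm it was called at -1.09, but not with library totals (-0.83), the length trend removed (-0.92), the GC trend removed (-0.74), by DESeq2 (-1.07) or without hPSC repeat 2 (-0.61). PSENEN, another subunit, had 24 and 24 reads in hPSC, 25 and 19 in ectoderm, 25 and 25 in mesoderm, and 42 and 39 in endoderm. It was called higher in endoderm, at 0.97 ± 0.32 (adjusted p = 0.0348), and lower in ectoderm, at -1.54 ± 0.34 (adjusted p = 0.00200). The ectoderm call of PSENEN was lost with the length trend removed (-0.38, adjusted p = 0.389) and with the GC trend removed (-0.88, 0.0503). Neither endoderm increase was called with library totals (0.77 for APH1A and 0.64 for PSENEN), with the GC trend removed (0.86 and 0.70) or without hPSC repeat 1 (0.70 and 0.86), and by DESeq2 that of PSENEN was not (1.02, adjusted p = 0.162).

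APH1B, a further subunit, fell in ectoderm (-2.42 ± 0.44) and was called in mesoderm (-1.96 ± 0.49), there not by DESeq2 (adjusted p = 0.0810). PSEN2, a catalytic subunit, fell in mesoderm (-1.64 ± 0.43). It was also called in ectoderm (-1.46 ± 0.38), but not with the length (-0.95) or GC trend (-0.83) removed or without hPSC repeat 2 (-0.93, adjusted p = 0.0503). ADAM17, a protease that can also cut NOTCH, rose in ectoderm by 1.72 ± 0.35 (adjusted p = 0.00102), and with the GC trend removed the value was 0.86 and not called (adjusted p = 0.0701). These genes and RBPJ, MFNG, HEY2, HES3 and NOTCH4, described last, were singled out after their values were seen.

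**Figure D5:**
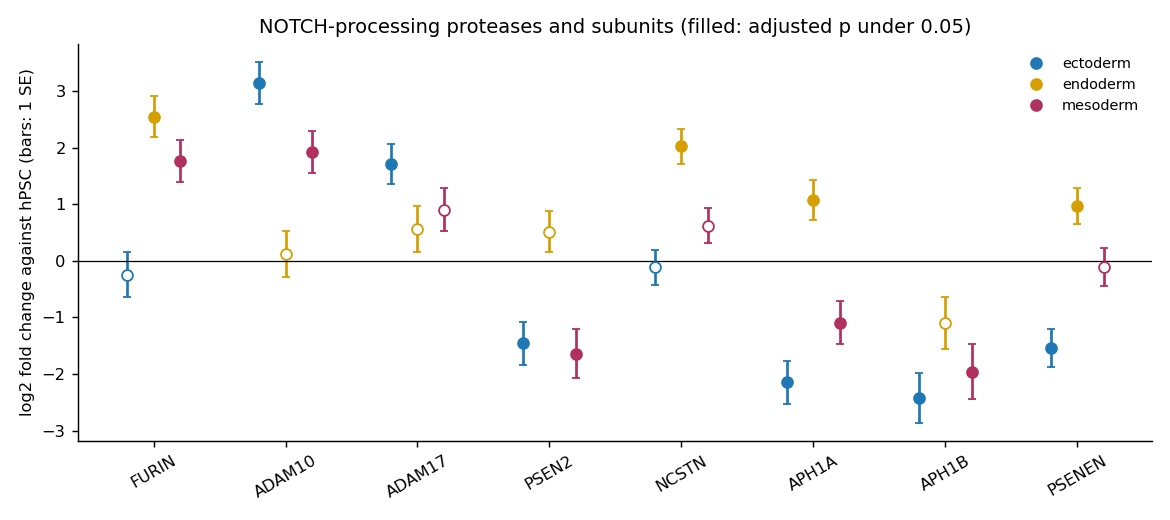
Fitted log2 fold change against hPSC of 8 genes for proteases that process NOTCH and their subunits, by layer, with bars of 1 SE and filled points for an adjusted p under 0.05. FURIN, NCSTN, APH1A and PSENEN are filled above 0 in endoderm, and ADAM10 reaches 3.15 in ectoderm.

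RBPJ, the DNA-binding partner of cleaved NOTCH, had 71 and 44 reads in hPSC, 159 and 115 in ectoderm, 27 and 27 in mesoderm, and 15 and 10 in endoderm. It fell in endoderm by 1.96 on the log2 scale (adjusted p = 0.000999) and in mesoderm by 1.24 (adjusted p = 0.00837), and was at -0.16 in ectoderm (adjusted p = 0.685), where the GC correction gave -1.18 (adjusted p = 0.00430). MFNG, a Fringe glycosyltransferase that alters which ligands a receptor answers to, had 7 and 14 reads in hPSC, 28 and 20 in ectoderm, 0 in mesoderm, and 1 and 0 in endoderm. HEY2, a close relative of HEY1, had 14 and 9 reads in hPSC, 2 and 1 in ectoderm, 9 and 17 in mesoderm, and 1 and 0 in endoderm. Its mesoderm libraries overlapped those of hPSC, with a log2 difference of 0.01 ± 0.49 (adjusted p = 0.988). HES3 had 38 and 6 reads in hPSC, 26 and 15 in ectoderm, and 0 in the other layers. NOTCH4 had 0 reads in hPSC and mesoderm, 5 and 1 in ectoderm and 2 and 2 in endoderm.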

How the data were processed

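RNA of 8 libraries, 2 per group, was compared. The authors deposited raw counts per assembled transcript for the combined assembly, and these whole-number counts were used as deposited. The endoderm columns, which the record of units made for this work enters under expected counts, were deposited by the authors as raw whole-number counts like the others, so no rounding was needed. Transcript coordinates were taken as deposited in the authors' assembly, on GRCh38. The submitters' processing notes name minimap2, StringTie, GRCh38 and hg38; the counting tool, its use of strand and its treatment of reads that match several genes are not given in the sources used here. Every value column belongs to a sample (0 do not).

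Counts of transcripts with the gene's name were summed per gene, leaving out 11590 transcripts without a name, and CPM scales a count to the library total. The main test was edgeR 4.0.16 (R 4.3.3): filterByExpr with a minimum count of 10, TMM, 1 quasi-likelihood fit over all 8 libraries, and p-values adjusted by Benjamini and Hochberg over 10836 genes or 12440 transcripts. Log2 fold changes come from that fit, with their SE. DLL3, JAG2 and HES4 did not pass the filter, and values for DLL3 and HES4 come from the fit without it. Transcript choice was tested with diffSpliceDGE. On simulated counts with 200 of 10836 genes changed 4-fold, 91.5% to 96% of them were recovered, and 2.56% to 6.40% of calls were false. The simulated libraries had no length trend, and far fewer genes changed than were called in the data. These rates therefore need not hold for the real libraries. Shares have 95% Wilson intervals, and ratios of small counts have exact 95% intervals, both for counting error only. The floor for a count of 0 was 3 counts per library.

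The alternatives were DESeq2 1.42.0, scaling by library totals, no filter, only the 2 groups compared, a block on the repeat number, removal of a smooth trend on transcript length (loess, span 0.3), other sets of transcripts per gene, and each library left out. Removal of a trend on GC content (known for 95.9% of tested genes) and leaving out single-exon or loosely overlapping transcripts were added after the data had been seen. The 10 genes, the pathway list, the markers and the tests were chosen with earlier results of these data known. All 10 genes were named. Of the pathway list, the 3 genes with the smallest adjusted p per layer were named among those with at least 10 counts in both libraries of a group, along with close copies of a member and, per tested member, the gene most like it. A member's transcripts were named with at least 10% of its reads in a group and 10 reads in all. The tables deposited for single groups and the deposited CPM table were not used. A result for 1 gene of the pathway list is not reported here.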

Additional observations from a re-analysis of the deposited data

How the results depend on the processing

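Of 20 calls of a member between groups, 9 were kept in every one of the 18 alternatives that gave a value: DLL1 in ectoderm against each other group, HEY1 in mesoderm against each other group, JAG1 in ectoderm against endoderm, and NOTCH1 in ectoderm and in endoderm against mesoderm. DLL1 and HEY1 passed the filter only through the group where they were high. The count of members called moved as follows. Between ectoderm and endoderm it was 4. It was 3 with the length trend removed and by DESeq2, and 5 with no filter, with the GC trend removed and with reference-matching transcripts. With library totals or only the 2 groups it was 6. Against hPSC in ectoderm it was 4, and 2 with the length trend removed. There it was also 3 with reference-matching transcripts, 5 with the GC trend removed or only the 2 groups, and 6 with no filter. In endoderm it was 1, and 2 with no filter, 0 with only the 2 groups, 0 with all listed transcripts, 0 by DESeq2 and 0 to 2 with a library left out. In mesoderm it was 2, and 1 with only the 2 groups, 1 with reference-matching transcripts, 1 by DESeq2 and 1 to 4 with a library left out. Between ectoderm and mesoderm it was 5, and 3 with reference-matching transcripts, 3 by DESeq2 and 3 to 6 with a library left out, and between endoderm and mesoderm 4, and 2 to 4 with a library left out. With the length trend removed the sign turned for NOTCH1 in ectoderm against endoderm (-0.03), NOTCH3 in ectoderm against hPSC (-0.50), endoderm (-0.34) and mesoderm (-0.47) and in mesoderm against hPSC (-0.03), DLL1 in endoderm against hPSC (0.12), and JAG1 in ectoderm against hPSC (-0.27) and mesoderm (-0.27) and in mesoderm against hPSC (-0.00). DLL1 in endoderm against hPSC also turned with no filter (0.02), all listed transcripts (0.03) and DESeq2 (0.03), and DLL1 in mesoderm against hPSC with library totals (0.06). DLL1 in endoderm against mesoderm turned with library totals (-0.43), with the GC trend removed (-0.20) and without the single-exon transcript (-4.40). HES1 from reference-matching transcripts turned in endoderm against hPSC (-0.11) and mesoderm (-0.24). Apart from the first, none of these values was called in the main analysis, and the cause was not tested. With each library left out, values that turned ranged from -1.10 to 0.16 for NOTCH2 in endoderm against hPSC. For NOTCH3 against hPSC they ranged from -0.08 to 1.53 in ectoderm, -0.93 to 0.75 in endoderm and -0.17 to 1.50 in mesoderm. For DLL1 they ranged from -0.66 to 1.37 in endoderm and -0.79 to 1.23 in mesoderm against hPSC, and from -0.32 to 0.72 between endoderm and mesoderm. For JAG1 they ranged from -0.01 to 0.84 in mesoderm against hPSC and from -0.00 to 0.33 between ectoderm and mesoderm, for HES1 from -0.38 to 1.49 in mesoderm against hPSC, and for HEY1 from -0.23 to 3.28 in ectoderm and -3.56 to 0.00 in endoderm against hPSC.

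The repeat numbers did not pair the libraries: deviations of same-numbered libraries correlated at -0.03 to 0.15 over 10836 genes in the 6 pairs of groups. With the replicate block the members called were 4, 1 and 2 against hPSC in ectoderm, endoderm and mesoderm, 4 and 5 in ectoderm against endoderm and mesoderm, and 4 between endoderm and mesoderm, as without it, and 0 members had a transcript choice call.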
